A study of Caenorhabditis elegans with 11 samples.

Results

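A pair of genes was followed across the 4 groups of a C. elegans study, the meiotic checkpoint kinase gene chk-2 and the cell-death activator gene egl-1. They were selected on measured values, since a gene entered the authors' deposited table of expression only by its own change. They are 2 of the 882 genes in it. Every gene in that table passed an adjusted p of 0.05 with a log2 change of 1 or more, up or down, in the soma or the germline comparison, and both genes were listed through the germline comparison. Their levels and fold changes are therefore described here without a test of their own. The splicing table was not used to choose them.

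SACY-1 is the worm ortholog of the human helicase DDX41. Poly(A)+ RNA was read from lysates of whole young adults, all kept on 2 mM auxin for 24 hours at 20 °C. Soma-depleted worms (strain DG4703, 3 samples) carried the sacy-1 allele tn1880, which adds an auxin degron, GFP and Myc (aid::gfp::myc) to SACY-1, with the transgene ieSi57, in which the eft-3 promoter drives the auxin receptor TIR1 in somatic cells. Soma controls (CA1200, 2 samples) carried ieSi57 with unc-119(ed3) and untagged SACY-1. Germline-depleted worms (DG4700, 3 samples) carried the same tagged allele with ieSi64, in which the gld-1 promoter drives TIR1 in the germline. Germline controls (CA1352, 3 samples) carried ieSi64 with unc-119(ed3) and untagged SACY-1. The tag and the unc-119 allele thus differ together with depletion in each comparison, and their effects cannot be told apart. No group lacked auxin.

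In C. elegans, CHK-2 is related to the DNA damage kinase known as CHK2 in mammals, but its main known work is in meiosis. It acts as germ cells enter meiotic prophase, where it is needed for chromosomes to find their partners and for the programmed DNA breaks that start crossing over. EGL-1 is a small protein with a BH3 motif. It binds the cell-death inhibitor CED-9, which frees CED-4 to activate the caspase CED-3. The p53-like factor CEP-1 is known to switch on egl-1 in germ cells with damaged DNA, and egl-1 is also transcribed in the cells that die during embryogenesis.

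Both genes lie on the minus strand of chromosome V in the annotation of WBcel235, the assembly of the deposited coordinates. The chk-2 gene (WBGene00000499) spans 19908086 to 19916023 and has 1 annotated transcript of 14 exons, with 476 coded residues. A 21-base noncoding gene, Y60A3A.29, lies on the opposite strand inside the untranslated part of chk-2 exon 14. Nothing at hand states whether reads were counted by strand, so reads over those 21 bases cannot be assigned to either gene. The annotated exons of chk-2 add up to 2532 bases. The egl-1 gene (WBGene00001170) spans 14431308 to 14432359, with 3 exons and 106 coded residues, and overlaps no other annotated gene.

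The chk-2 transcript was highest in germline-depleted worms, and the other 3 groups lay close together. The authors' group means were 3.06 FPKM in soma-depleted worms and 2.34 FPKM in soma controls, a ratio of 1.31. They were 6.08 FPKM in germline-depleted worms and 2.59 FPKM in germline controls, a ratio of 2.34. FPKM scales fragments by transcript length and library size, so levels can be compared between genes. From highest to lowest, the order was germline-depleted, soma-depleted, germline control and soma control. The step from the first to the second group was 1.98-fold, while the lower 3 groups spanned 1.31-fold. These are means of pooled replicates, so whether neighbouring groups in this order differ beyond their spread could not be tested.

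The egl-1 transcript was lowest in germline controls, and here it was the other 3 groups that lay close together. The authors' group means were 3.27 FPKM in soma-depleted worms and 4.05 FPKM in soma controls, a ratio of 0.809. They were 3.69 FPKM in germline-depleted worms and 1.65 FPKM in germline controls, a ratio of 2.23. The order from highest to lowest was soma control, germline-depleted, soma-depleted and germline control. The upper 3 groups spanned 1.24-fold, and germline controls lay at 40.8% of soma controls. The mean of egl-1 after germline depletion was 91.1% of its mean in soma controls, whereas that of chk-2 was 260% of its soma control mean.

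**Figure D1:**
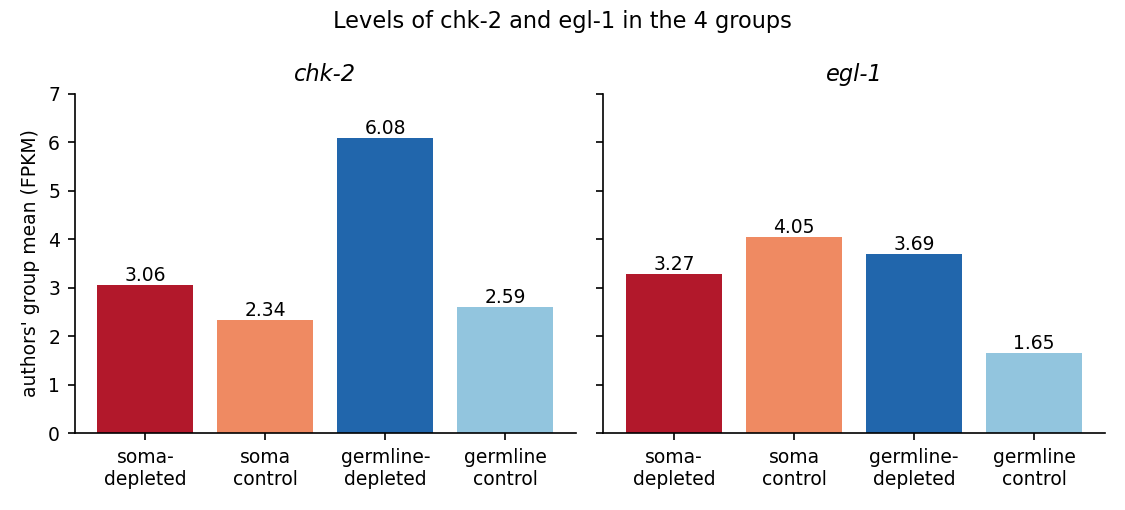
Authors' group mean level (FPKM, bars from 0) of chk-2 and egl-1 in soma-depleted, soma control, germline-depleted and germline control worms; bars have no error because replicates were pooled. The germline-depleted bar of chk-2 (6.08) stands above its other bars, and the germline control bar of egl-1 (1.65) stands below its other bars.

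In the germline comparison the deposited fold changes of the 2 genes were near each other. For chk-2 the authors' deposited table gave a log2 fold change of 1.24 (DESeq2 adjusted p = 8.3e-08), which is 2.35-fold. For egl-1 the authors' deposited table gave 1.15 (DESeq2 adjusted p = 0.00887), which is 2.21-fold. Both genes passed as higher, against a background of 41.8% of listed genes called higher and 62.9% called in either direction. As these values chose the genes, nothing is read from that count. The smallest absolute log2 fold change that had a gene listed was 1.00, so both lay above the limit, and genes just below it were not analysed here. Among the 369 genes called higher in the authors' deposited table, chk-2 ranked 184th by fold change, beside a median of 1.24, and egl-1 ranked 234th. By adjusted p in the authors' deposited table, chk-2 ranked 115th and egl-1 321st of the 369.

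In the soma comparison neither gene passed, and their directions differed. The log2 fold change of chk-2 was 0.40 in the authors' deposited table (DESeq2 adjusted p = 0.253). That of egl-1 was -0.33 in the authors' deposited table (DESeq2 adjusted p = 0.605). In this comparison 59.5% of listed genes were called. Of the 369 genes called higher in the germline comparison, 277 did not pass in the soma comparison, as was the case for these 2. The germline fold change exceeded the soma one by 0.84 for chk-2 and by 1.48 for egl-1 on the log2 scale. Without standard errors or values per sample, neither difference between the comparisons was tested.

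The counts behind the 2 genes were unequal. The authors' mean count over all samples was 187 for chk-2 and 47.8 for egl-1, beside a median of 162 among the listed genes. Splitting the mean count by the group FPKM values gave an estimate of 314 counts per germline-depleted library and 134 per germline control library for chk-2. The same estimate for egl-1 was 57.2 counts per germline-depleted library and 25.6 per germline control library. The soma control samples used here are numbered 1 and 3, and no header says whether the deposited means hold a further library. With 12 samples in place of 11, a choice made after seeing the data, the estimates were 323 and 138 counts per germline-depleted and germline control library for chk-2, and 55.7 and 25.0 for egl-1. The low germline control level of egl-1 thus rests on few reads. The spread between its 3 libraries is not known here.

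The 2 genes also differed in how they stood across the 2 TIR1 transgenes. For chk-2 the germline control mean over the soma control mean was 0.15 on the log2 scale, and the germline-depleted mean over the soma-depleted mean was 0.99. For egl-1 the control ratio was -1.29 and the depleted ratio 0.17. Among the 369 genes called higher after germline depletion, the median control ratio was -1.15 and 317 were below 0. Those genes were called for a level above that of germline controls, which favours a low germline control, so nothing is read from these shares. Counting from the lowest control ratio, egl-1 ranked 171st and chk-2 335th. Counting from the highest depleted ratio, chk-2 ranked 34th and egl-1 145th. Germline controls were the lowest of the 4 groups for 301 of the 369 genes and for 343 of all 882, egl-1 included. Germline-depleted worms were the highest for 143 of the 369 and for 176 of all 882, chk-2 included. The strains that carry ieSi57 and ieSi64 differ in more than depletion, and no test was run between them.

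**Figure D2:**
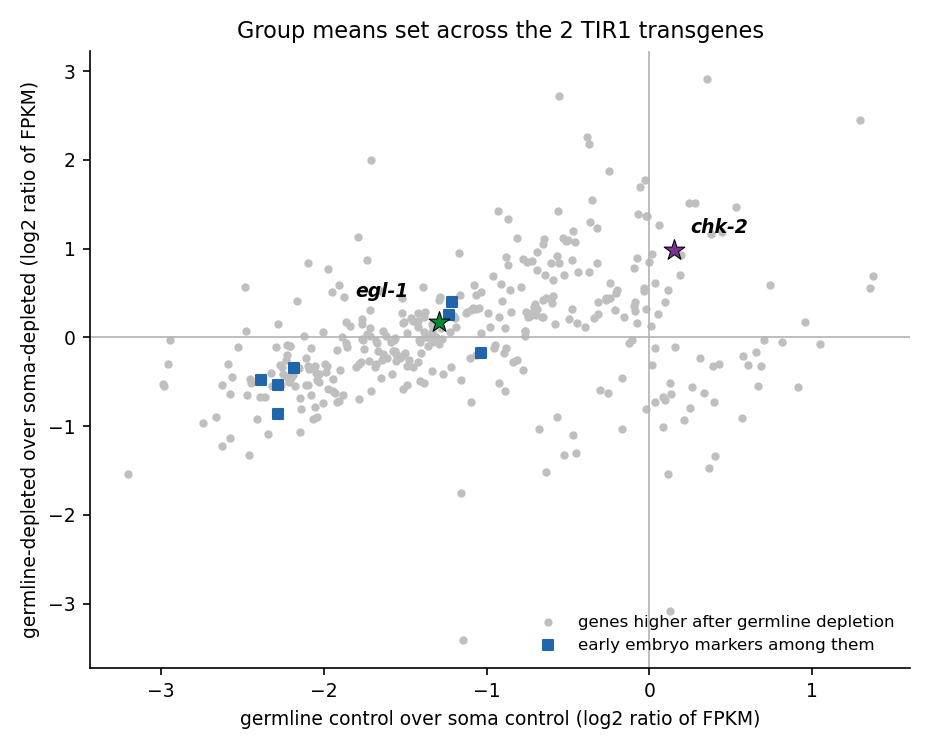
Each point is 1 of the 369 genes called higher after germline depletion. The horizontal axis gives germline control over soma control and the vertical axis germline-depleted over soma-depleted, both as log2 ratios of the authors' FPKM means. The egl-1 star lies at -1.29 and 0.17 and the chk-2 star at 0.15 and 0.99. The 7 early embryo markers (squares) have medians of -2.18 and -0.34. On the vertical axis 2 of the 7 lie above 0, beside 185 of the 369 genes.

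Genes with the most similar pattern were sought as the root mean square distance between profiles of log2(FPKM + 0.1) over the 4 groups, each gene centred on its own mean. The 5 nearest to chk-2 were C28C12.1 (distance 0.05), the pseudogene Y95D11A.2 (0.05), F14D2.14 (0.09), T15B7.15 (0.11) and the F-box gene fbxa-113 (0.13). The median distance of all other listed genes was 0.78. C28C12.1 had 10.2 FPKM in germline-depleted worms and 4.27 FPKM in germline controls as authors' means. The 5 nearest to egl-1 were the pseudogene M117.7 (0.04), C45B11.6 (0.05), the pseudogene C24H12.11 (0.05), the F-box gene fbxb-78 (0.05) and sdz-38 (0.05), with a median of 0.70. The sdz genes are named for zygotic transcription in the embryo that needs the factor SKN-1. The authors' means of sdz-38 were 7.02 FPKM in soma-depleted worms and 9.36 FPKM in soma controls, and 8.40 FPKM in germline-depleted worms and 3.99 FPKM in germline controls. All 5 genes nearest to egl-1 shared its order of groups. The distance was taken over the same 4 group means, which favours a shared order, so nothing is read from that. Of the 882 genes, 37 held the order of egl-1 and 21 that of chk-2. With Pearson's correlation as the measure, 3 of the 5 nearest to chk-2 were found again, and 0 of the 5 nearest to egl-1. The distance between chk-2 and egl-1 was 0.60, and egl-1 was the 190th nearest of 881 genes to chk-2.

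**Figure D3:**
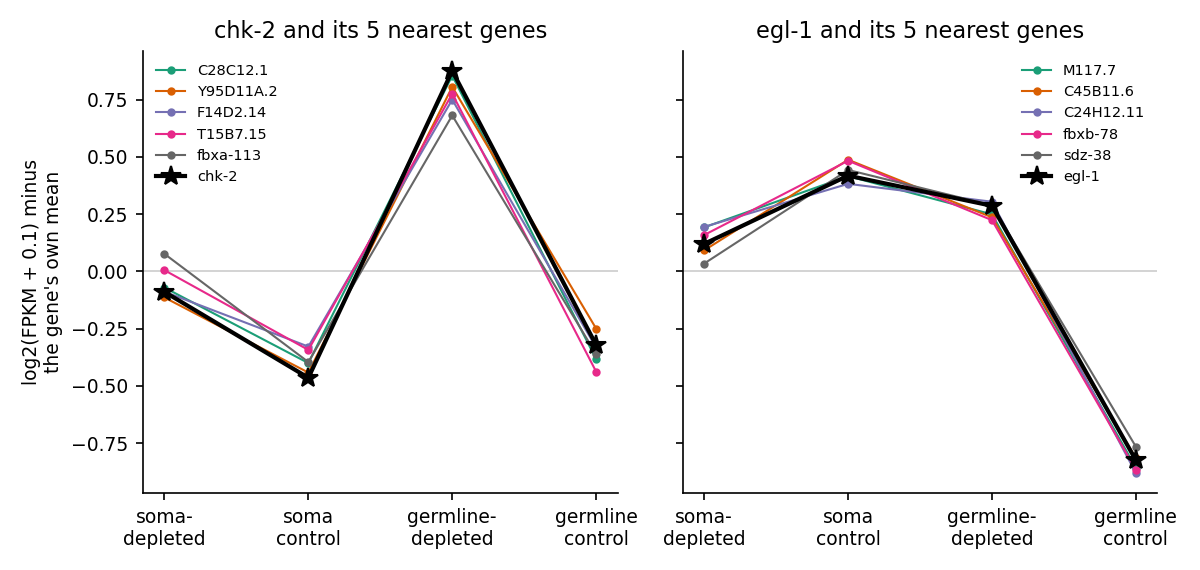
Profiles of chk-2 and egl-1 (stars) with the 5 genes nearest to each, as log2(FPKM + 0.1) minus the gene's own mean over the 4 groups, from the authors' means. The chk-2 profile has its peak in germline-depleted worms, and the egl-1 profile its low point in germline controls.

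Genes of the wider pathways were also looked for in the expression table. The share of all annotated genes that were listed is not given here, so these counts are not read as few or many. Of 27 DNA damage checkpoint genes in the list used here, chk-2 alone was listed. Of 57 DNA repair genes and 46 genes of meiotic pairing, breaks and synapsis, 0 were listed. Of 46 genes of the apoptosis core and its regulators, egl-1 alone was listed. The list of 38 genes of corpse engulfment and degradation had 1, ttr-52, whose secreted product binds phosphatidylserine on dying cells. Thus 3 of 214 genes were listed, with 3 higher and 0 lower in the germline comparison. Over all listed genes, 369 were higher and 186 lower. All 3 were listed through their rise in the germline comparison, so nothing is read from that direction. Levels of genes not listed were not analysed here.

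The ttr-52 gene (chromosome III) had the same order of groups as egl-1. Its authors' means were 9.87 FPKM in soma-depleted worms and 14.3 FPKM in soma controls, and 11.1 FPKM in germline-depleted worms and 5.04 FPKM in germline controls. The authors' deposited table gave it log2 fold changes of -0.54 in the soma comparison (DESeq2 adjusted p = 0.119) and 1.14 in the germline comparison (DESeq2 adjusted p = 2.4e-05). As for egl-1, germline controls were its lowest group, which held for 301 of the 369 genes called higher in the germline comparison.

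Markers of other cells in a whole adult moved as well. Of 39 early embryo markers, 9 were listed. In the germline comparison 7 of these rose, 1 fell and 1 did not pass, beside 369 higher and 186 lower among all 882 listed genes. In the soma comparison 0 rose, 2 fell and 7 did not pass, beside 262 higher and 263 lower among all. Each of the 9 was listed by its own change, and the 7 that rose by that rise, so nothing is read from these counts. The endoderm factor gene end-3 had 2.85 FPKM in germline-depleted worms and 0.833 FPKM in germline controls (authors' means), with a log2 fold change of 1.75 in the authors' deposited table (DESeq2 adjusted p = 0.000118). The early zygotic gene pes-10 had 3.05 FPKM in germline-depleted worms and 1.46 FPKM in germline controls (authors' means), and sdz-4 had 6.36 FPKM in germline-depleted worms and 2.23 FPKM in germline controls. Germline controls were the lowest group for 7 of the 9 markers, namely the 7 that rose, beside 81.6% of all genes called higher and 38.9% of all listed genes. The whole order of groups seen for egl-1 was held by 1 of the 9, sdz-38. Across the transgenes, the 7 markers that rose had a median control ratio of -2.18 and a median depleted ratio of -0.34 on the log2 scale. Over all 369 genes called higher, these medians were -1.15 and 0.0002. The depleted ratio was above 0 for 2 of the 7 markers, end-3 and sdz-38, and for egl-1 with 0.17. It was above 0 for 185 of the 369 genes. The median log2 fold change of the 9 was 1.08 in the germline comparison and -0.35 in the soma comparison, beside 0.33 and -0.08 over all listed genes. The listing limit also shapes these group orders, ratios and medians, so nothing is read from them.

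In the germline comparison the summed level of the 9 embryo markers ran the other way from their median fold change. The sums were 441 FPKM in soma-depleted worms and 565 FPKM in soma controls, and 478 FPKM in germline-depleted worms and 531 FPKM in germline controls. Most of each sum came from sdz-27 and from sdz-24, which fell and had 173 FPKM in germline-depleted worms and 388 FPKM in germline controls. No listed embryo marker was at 0 in any group. The part of embryo content in the egl-1 level was not tested. In RNA from whole worms, fewer cells of a type and less RNA per cell cannot be told apart. Of 67 sperm markers, 20 were listed. All 20 rose in the soma comparison, where neither chk-2 nor egl-1 passed and 29.7% of listed genes were called higher. In the germline comparison 5 of the 20 rose, beside 41.8% of listed genes. Each of the 20 met the listing limit by its rise in the soma comparison, so nothing is read from these shares. Their summed level was 166 FPKM in soma-depleted worms and 57.2 FPKM in soma controls, and 107 FPKM in germline-depleted worms and 66.3 FPKM in germline controls. Of 33 germline and oocyte markers, 0 were listed, so the germline content of the groups could not be read from these markers, and its part in the chk-2 level was not tested.

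**Figure D4:**
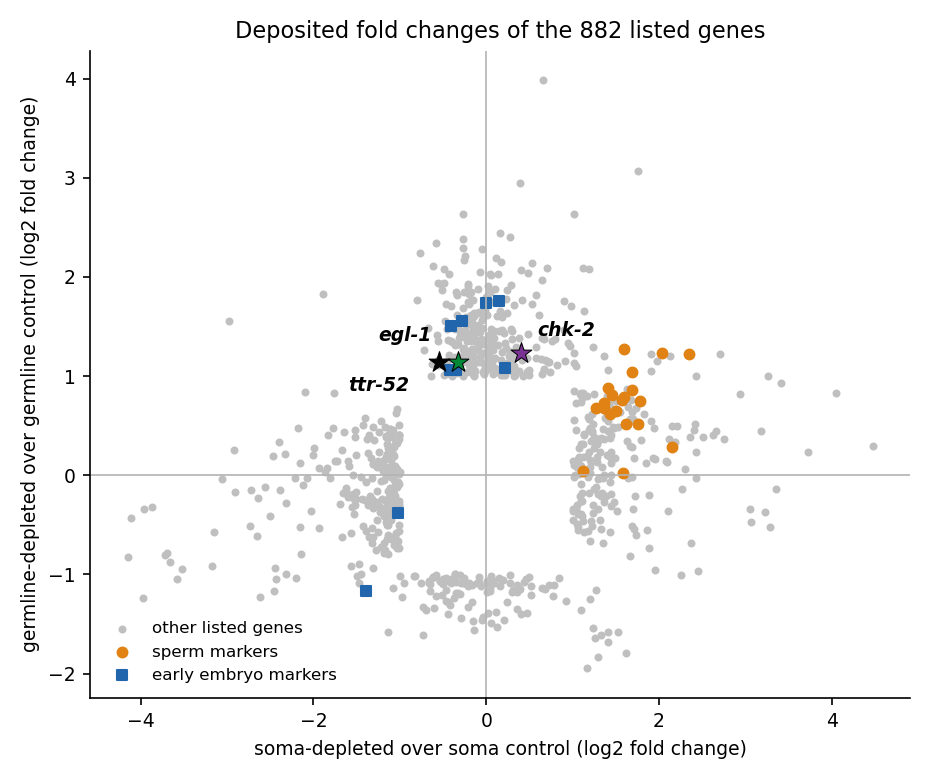
Deposited log2 fold changes of the 882 listed genes, soma comparison on the horizontal axis and germline comparison on the vertical axis, with stars for chk-2, egl-1 and ttr-52, squares for early embryo markers and circles for sperm markers. The empty centre is the listing limit of 1; chk-2 (0.40 and 1.24) and egl-1 (-0.33 and 1.15) lie above it.

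The nearest listed gene to chk-2 on the chromosome, pcp-4 of the prolyl carboxypeptidase family, lay 77074 bases away and fell in the germline comparison, with a log2 fold change of -1.03 in the authors' deposited table (DESeq2 adjusted p = 1.0e-05). The nearest to egl-1, the C-type lectin gene clec-227, lay 40169 bases away. It fell in the soma comparison, with a log2 fold change of -1.04 in the authors' deposited table (DESeq2 adjusted p = 7.7e-16), and rose in the germline comparison, with 0.35 (DESeq2 adjusted p = 0.00456).

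Splicing gave a readout that had not been used to choose the genes. Of the 3096 events in the authors' deposited table of splicing, 0 named chk-2 or egl-1, and 0 overlapped either gene. Their 13 and 2 annotated introns thus gave no listed event, which does not show that their splicing was the same in all groups, since only events that passed somewhere are listed.

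Other genes of the same pathways did have listed events. In the 5 pathway lists, 51 events in 39 genes overlapped an annotated exon of the gene they name. In the soma comparison 16 of 51 had a q-value under 0.05 (31.4%), beside 53.1% of all listed events. In the germline comparison 14 of 50 did (28%), beside 26.5% of all. For sperm against oocyte samples, data the authors took from another study, 34 of 49 did (69.4%), beside 65% of all. By list, the soma counts were 2 of 5 (checkpoint), 2 of 13 (repair), 3 of 16 (meiotic), 4 of 8 (apoptosis) and 5 of 9 (engulfment). In the same order, the germline counts were 1 of 5, 4 of 13, 3 of 15, 2 of 8 and 4 of 9. No header says which group was subtracted from which, so the signs of inclusion differences are given as deposited. Of the 16 soma events, 14 had a negative sign, beside 1248 of the 1606 that passed over all listed events. Of the 14 germline events, 10 did, beside 548 of the 796 that passed over all. Most passing events were thus negative in the whole table too. The events that passed in both were 2, in gen-1 and lst-4.

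Among checkpoint genes, the largest differences that passed in a depletion comparison were those of atl-1. This gene encodes the worm ATR kinase, which acts with CHK-1 in the response to damaged or unreplicated DNA. An alternative 3 prime splice site, where an intron can end at either of a pair of acceptors, lay at the first coding exon (chromosome V, 9645381 to 9645472). Its inclusion difference was -0.246 in the soma comparison (q = 0.00113) and -0.032 in the germline comparison (q = 1) in the authors' deposited table. The annotation places another acceptor 8 bases further in. A retained intron event over the same stretch (9645381 to 9645712) had -0.481 in the soma comparison (q = 0.000298) and -0.049 in the germline comparison (q = 1) in the authors' deposited table. The 2 events share reads. The phosphatase gene cdc-25.1, whose product activates cell-cycle kinases, had a retained intron event with -0.092 in the germline comparison (q = 0.0137) in the authors' deposited table. The p53-like gene cep-1, named here after its values were seen because its product acts on egl-1, passed in the sperm and oocyte comparison and in neither depletion comparison. The authors' deposited table gave its alternative 3 prime site 0.251 there (q listed as 0), against -0.003 in the soma and 0.015 in the germline comparison (q = 1 in both).

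In the apoptosis list, the caspase-activator gene ced-4, which acts downstream of egl-1, had a retained intron event at chromosome III, 4854730 to 4855574. Its difference was -0.237 in the germline comparison (q = 0.0164) and -0.023 in the soma comparison (q = 1) in the authors' deposited table. The event overlaps the last exon of ced-4 and also names the gene C35D10.8, so its reads may come from either. The gene for the tyrosine kinase ABL-1, which in worms restrains germ cell death after irradiation, had a skipped exon of 30 bases with a difference of 0.577 in the soma comparison (q = 7.6e-07) in the authors' deposited table. The alternative 3 prime sites of eor-2 (-0.457, q = 0.00276), pig-1 (-0.103, q = 0.0428) and ces-2 (-0.030, q = 0.0279) passed in the soma comparison in the authors' deposited table. CES-2 is known to act above egl-1 in the death of a pharyngeal neuron's sister cells, through the repressor CES-1. The site in gld-1, whose product represses cep-1 translation, had -0.115 in the germline comparison (q = 0.000493) in the authors' deposited table. Germline-depleted worms and germline controls both carry gld-1 promoter and 3 prime sequence in the TIR1 transgene.

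In the engulfment list, the largest difference was that of piki-1, which encodes a phosphoinositide kinase of corpse clearance. It was -0.741 in the soma comparison (q = 8.5e-06) and -0.132 in the germline comparison (q = 0.479) in the authors' deposited table. The transporter gene ced-7 had one event of -0.303 that passed in the soma comparison (q = 4.7e-07) and another of 0.240 that passed in the germline comparison (q = 0.00574) in the authors' deposited table. The sorting nexin gene lst-4 passed in both, with -0.228 in the soma (q = 1.3e-05) and -0.137 in the germline (q = 0.00486) in the authors' deposited table. Smaller events passed for tat-1 and snx-6 in the soma comparison and for ttr-52 in the germline comparison. The repair gene gen-1, for a Holliday junction resolvase, had -0.219 in the soma (q = 3.7e-06) and -0.124 in the germline (q = 0.0220) in the authors' deposited table. The repair genes rev-1 and fncm-1 passed in the germline comparison and xpa-1 in the soma comparison, with absolute differences of at most 0.085.

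In the meiotic list, 3 of 16 events passed in the soma comparison (18.8%), beside 53.1% of all listed events. In the germline comparison 3 of 15 passed (20%), beside 26.5% of all. The genes with passing events include some whose products act beside CHK-2 in chromosome pairing. The zinc-finger proteins of the ZIM family bind pairing centres and are known CHK-2 targets. A retained intron that names both zim-1 and zim-2 had -0.214 in the soma comparison (q = 0.0124), and an overlapping alternative 3 prime site had -0.130 in the germline comparison (q = 0.0499), in the authors' deposited table. ZYG-12 links chromosome ends at the nuclear envelope to the cytoskeleton, and its gene had -0.176 in the soma comparison (q = 3.4e-06) and -0.006 in the germline comparison (q = 1) in the authors' deposited table. A him-19 retained intron, which also names Y95B8A.6, had 0.184 in the germline comparison (q = 0.000290) in the authors' deposited table. Smaller events passed for zhp-2 in the soma and him-3 in the germline comparison. Of the 15 alternative 3 prime sites among the 27 events named for the 5 lists, cep-1 left out, 14 had an annotated inner acceptor, 6 to 9 bases away.

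**Figure D5:**
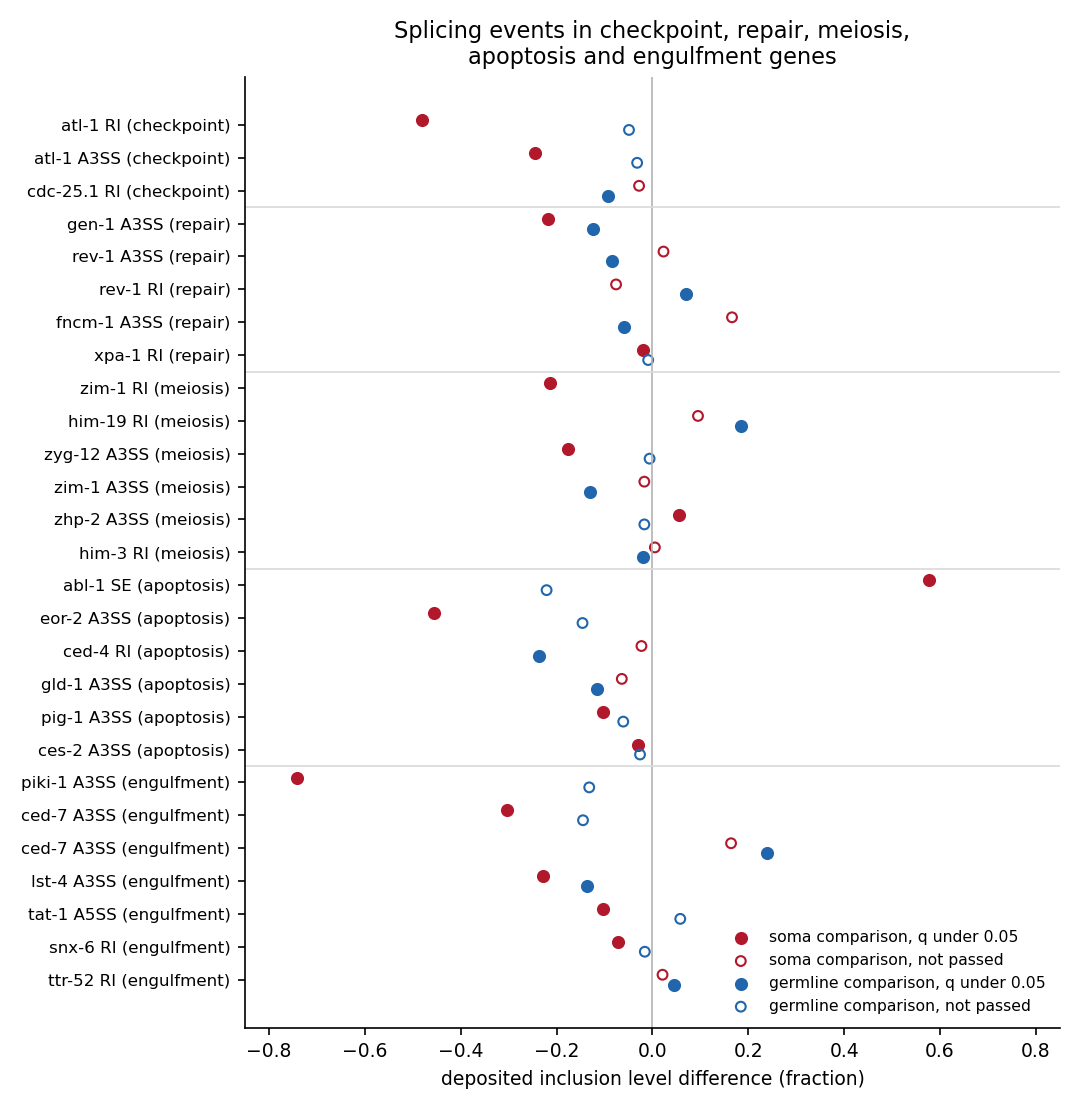
Deposited inclusion level differences (fraction) of 27 events in 23 genes of the checkpoint, repair, meiosis, apoptosis and engulfment lists, for the soma (red) and germline (blue) comparisons, filled where q was under 0.05. Most filled points lie left of 0, as did most passing events over all listed events. The lowest is piki-1 at -0.741 and the highest abl-1 at 0.577. RI is a retained intron, SE a skipped exon, A3SS and A5SS alternative 3 prime and 5 prime splice sites.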

How the data were processed

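Per the file headers, the authors deposited group mean FPKM values, log2 fold changes, Benjamini-Hochberg adjusted p-values and a mean count over all samples, with Ensembl 97 identifiers, and a splicing table with q-values and inclusion level differences on WBcel235/ce11. Per the submitters' processing notes, they used DESeq2 1.26.0, STAR 2.7.2a, SAMtools 1.7, cutadapt 1.18 and Trim Galore 0.6.0. For read counting and splicing calls, the program is not stated in the labels or headers. Replicates are pooled in every deposited value, so depth per sample is unknown and no model was fitted.

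The authors' log2 fold changes differed by less than 0.1 from the log2 FPKM ratio of depleted to control worms for 880 of 882 genes in the soma and 882 in the germline. They are read so, although the header sets the germline column against the soma control, a ratio matched by 76 genes. Members were taken by gene name. Estimated counts weight groups by 2, 3, 3 and 3 samples. Events were assigned to a list gene they name if they overlap one of its exons in Ensembl 115, with starts counted from 1. All members of the 8 lists had been chosen with earlier results of these data known. Named genes were the members, list genes with expression values, up to 6 genes per pathway list by the largest passing splicing difference, the 5 nearest in pattern and the nearest neighbour. Of the 214 pathway genes, 211 had a known symbol. The distance search was tested on simulated data. Python 3.11.15, numpy 2.4.6, pandas 2.3.3 and matplotlib 3.10.9 were used. No sequence was printed, as none was held in the files used.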

Additional observations from a re-analysis of the deposited data

How the results depend on the processing

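Directions of the 4 fold changes of chk-2 and egl-1 were the same when taken as ratios of the FPKM group means. A pseudocount added to both means cannot change a direction, so nothing is read from directions under different pseudocounts. As log2 FPKM ratios with a pseudocount of 1, chk-2 was 0.28 in the soma and 0.98 in the germline comparison, and egl-1 was 0.82 in the germline comparison. This follows from adding 1 to levels of a few FPKM. Of the 5 genes nearest to chk-2, 3 were shared with Pearson's correlation and 1 without centring. Of the 5 nearest to egl-1, 3 were shared with a pseudocount of 1 and 3 among genes averaging 100 counts or more, and 0 with Pearson's correlation or without centring, so those names depend on the measure. Without the sdz genes, an alternative chosen after seeing the data, 3 early embryo markers rose in the germline comparison. At an absolute inclusion difference of 0.2, pathway events fell to 9 in the soma and 2 in the germline comparison. The germline count was 7 at a difference of 0.1 and 4 at a q-value under 0.01. Among genes called higher alone, 50.1% lay below chk-2 and 36.6% below egl-1 by germline fold change. The stricter limits leave fewer events by construction, and for the nearest genes the cause was not tested. The other 29 values under alternatives stayed within the limits set. No paired analysis was possible because the deposited values pool the replicates, which also means that no replicate could be left out.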
